A study of Mus musculus with 3 samples.

Results

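The PEA3 family is a group of closely related ETS transcription factors made up of Etv1 (also ER81), Etv4 (Pea3) and Etv5 (ERM). All 3 genes were found by symbol in the platform annotation, among the 19938 genes measured, and 5 probe sets of the 28856 on the array belong to them: 2 for Etv1, 1 for Etv4 and 2 for Etv5. Expression had been measured once in each of 3 groups of EWS/ATF1 sarcoma material from mice on a mixed C57/BL6, 129 and ICR background. EWS/ATF1 is the fusion protein of human clear cell sarcoma, in which the start of EWSR1 is attached to the CREB-family factor ATF1; in these mice doxycycline switches it on. By its label, the array called tumor carries RNA taken straight from a tumor of a mouse that had received doxycycline for 3 months. By its label, the array called high doxycycline carries RNA of cultured tumor cells 24 h after exposure to 0.2 microg/ml doxycycline. By its label, the array called control carries RNA of cultured tumor cells with 0 microg/ml doxycycline, also taken at 24 h. Marker genes given below go against the labels of the tumor and control arrays. The sample descriptions give the number 1297 to both cultures and 1281 to the tumor, with no word on what the numbers stand for, and the sources used here do not name the promoter that drives the transgene. With 1 array per group there is no test, no replicate check and no p-value, and every fold below describes single arrays.

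PEA3 factors bind DNA through an ETS domain and switch on genes of branching, migration and matrix breakdown. Growth factor signals, those of FGF receptors in particular, raise Etv4 and Etv5 through the RAS-ERK cascade, and ERK phosphorylation makes the proteins more active. The repressor CIC holds all the PEA3 genes down when ERK is silent, and the COP1 ubiquitin ligase has the proteins destroyed. Etv1 is also a lineage factor of interstitial cells of Cajal and of some neurons. In human Ewing sarcoma, ETV1 and ETV4 occur, rarely, as fusion partners of EWSR1.

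The family is named after the sequence AGGAAGT, an ETS site first described in a viral enhancer. Windows of 280 bases, from 250 bases before a RefSeq start site to the 30th base of the transcript, were matched for 2 of the members, Etv1 and Etv5, with 2 start sites each (GRCm38.p6). The site occurs in 1 window of each gene, and these 2 windows are shown as those of the family's own genes that hold the family's site; binding was not measured. Capitals mark AGGAAGT, read 5′ to 3′ on the strand of the gene.
Etv1, chr12:38779832-38780111, plus strand: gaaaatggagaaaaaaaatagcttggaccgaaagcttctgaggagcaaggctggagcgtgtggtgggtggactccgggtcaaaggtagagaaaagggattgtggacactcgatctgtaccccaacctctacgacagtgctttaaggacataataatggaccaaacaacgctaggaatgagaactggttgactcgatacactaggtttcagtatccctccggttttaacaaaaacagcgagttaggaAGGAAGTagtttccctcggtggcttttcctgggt
Etv5, chr16:22438339-22438618, minus strand: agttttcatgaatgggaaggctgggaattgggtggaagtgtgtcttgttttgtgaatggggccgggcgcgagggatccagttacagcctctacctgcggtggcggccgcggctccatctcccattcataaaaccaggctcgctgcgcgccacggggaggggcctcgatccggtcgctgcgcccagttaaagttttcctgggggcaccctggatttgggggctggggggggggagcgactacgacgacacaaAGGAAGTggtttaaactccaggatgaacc
Counted from 1 at the start site, with no base 0, the match runs from -4 to 3 in Etv1 and from 2 to 8 in Etv5. The Etv1 window holds 47.1% G and C, and the Etv5 window 60.0%. Of all 32851 such windows, 2841 (8.65%) hold AGGAAGT on either strand. The core TGACG, which CREB-family factors bind, is in 19.9% of all windows and in 0 of the 4 windows of Etv1 and Etv5. Of the sequences bound by CIC, TGAATGAA is in 1.25% of all windows and TGAATGGA in 1.14%, and these 4 windows hold 0 of either. These are matches of letters in a short window and say nothing of binding by any factor.

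One limit touches each comparison. Marker genes of tissue were brighter on the array labelled control, which by its label is a culture, than on the array labelled tumor. The 8 macrophage markers summed to intensities of 979 on tumor, 1238 on high doxycycline and 23405 on control, and 1, 1 and 8 of them lay above the median of their array. The 6 endothelial markers summed to 702, 785 and 6900 in the same order, the 5 skeletal muscle markers to 995, 1112 and 22035, and the 6 fibroblast and matrix markers to 1794, 1454 and 31248. Above the array median lay 0, 0 and 5 of the endothelial and 2, 3 and 5 of the skeletal muscle markers. Of the fibroblast and matrix markers 5, 5 and 6 did. None of these genes had an intensity of 0 on any array, the lowest being Lum with 52.4 on high doxycycline. The control and tumor arrays therefore go against their labels, and arrays are named below by their labels only. As a description across all probe sets, Pearson correlations of log2 values were 0.991 for tumor and high doxycycline, 0.917 for tumor and control and 0.928 for high doxycycline and control. Exactly equal values were held by 34.6%, 16.9% and 21.6% of probe sets in the same order of pairs. Their part in the correlations was not tested. Whether the labels of tumor and control were exchanged was not tested. In bulk RNA, fewer cells of a kind and less RNA per cell cannot be told apart. The comparison of tumor with high doxycycline does not use the control array and is given for every member beside the others, but it does rest on the tumor label: with the labels exchanged it would set a culture without doxycycline against one with it.

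Etv1 was brightest on tumor, intermediate on high doxycycline and dimmest on control with both of its probe sets. The brighter one had intensities of 1566 on tumor, 729.7 on high doxycycline and 293 on control. The dimmer one had 994 on tumor, 453 on high doxycycline and 120.2 on control. Both probe sets thus gave the same order, and on control the dimmer one lay under the array median, at percentile 30.0 of all probe sets there. By the brighter probe set, Etv1 was 5.32-fold brighter on tumor than on control (2.41 on the log2 scale, where all differences are taken between log2(intensity + 1) values). It was 2.48-fold brighter on high doxycycline than on control (log2 1.31) and 2.14-fold brighter on tumor than on high doxycycline (log2 1.10). The dimmer probe set gave 8.21-fold, 3.75-fold and 2.19-fold in the same order. The probe sets were 0.63 apart on the log2 scale for tumor against control and 0.59 for high doxycycline against control. Between tumor and high doxycycline they were 0.031 apart.

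Etv4, the founding PEA3 gene and a usual readout of FGF and ERK signalling, ran the other way. Its single probe set had an intensity of 169 on tumor, 310.0 on high doxycycline and 602 on control. Tumor was the lowest of the 3 arrays and control the highest, with high doxycycline between them. On tumor the value lay under the array median of 219.8, at percentile 44.1, and the table gives no measure of background. Etv4 was 3.54-fold dimmer on tumor than on control (log2 -1.82). It was 1.94-fold dimmer on high doxycycline than on control (log2 -0.95) and 1.83-fold dimmer on tumor than on high doxycycline (log2 -0.87), both just short of 2-fold; under quantile normalization the first passed it (-1.07).

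Etv5, which shares FGF control with Etv4, differed from both in its order. Its brighter probe set had 411 on tumor, 841 on high doxycycline and 798 on control. The other had 499.9 on tumor, 832 on high doxycycline and 678 on control. With both probe sets tumor was the lowest array, while high doxycycline and control lay close together. By the brighter probe set Etv5 was 2.04-fold dimmer on tumor than on high doxycycline (log2 -1.03) and 1.94-fold dimmer on tumor than on control (log2 -0.95). The first of these calls was lost after a shift to a common median (-0.99), and the second was made under quantile normalization (-1.11). The other probe set gave 1.66-fold (log2 -0.73) and 1.36-fold (log2 -0.44) for the same pairs. High doxycycline exceeded control by 0.076 with the first and by 0.30 with the second on the log2 scale, and the first value turned to -0.15 under quantile normalization. Both Etv5 probe sets are annotated with the same 3 accessions, so the annotation does not tell what parts of the transcript they read.

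**Figure D1:**
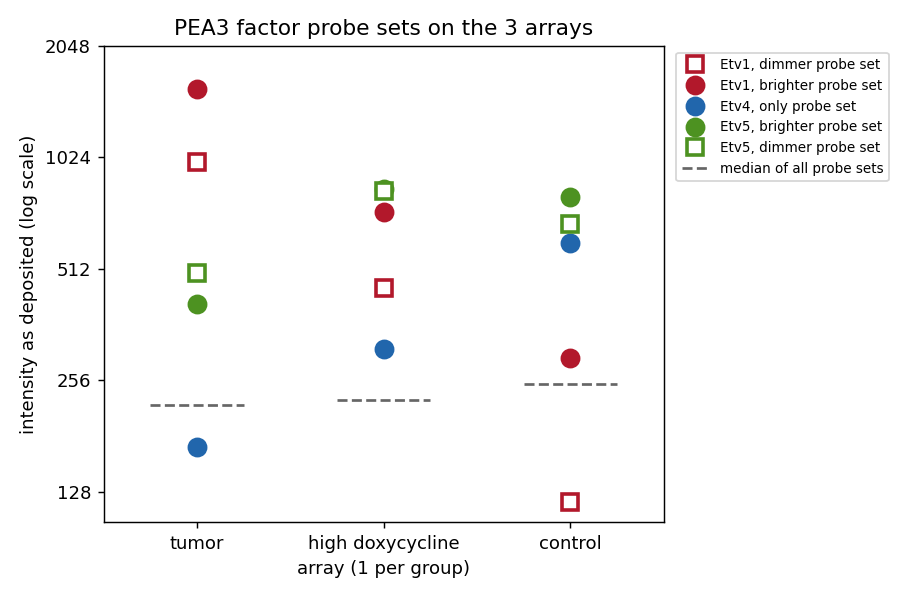
Intensities (vertical axis, log scale, as deposited) of the 5 PEA3 factor probe sets on the arrays labelled tumor, high doxycycline and control, 1 array per group and so without error bars; dashed lines are the array medians over all probe sets. Etv1 is highest on tumor (1566 and 994), Etv4 is lowest there (169), and both Etv5 probe sets are lowest there (411 and 499.9).

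The size of these differences was read against all genes. Genes were compared if the higher of their 2 values exceeded the median of its own array, and all 3 members met this in each comparison. Between tumor and high doxycycline few genes differed by 2-fold: of 11178 genes, 179 (1.60%) were at least 2-fold brighter on tumor and 218 (1.95%) were at least 2-fold dimmer. Of the 3 members, Etv1 was among the brighter and Etv5 among the dimmer, at rank 141 from the brightest and rank 210 from the dimmest, and Etv4 stood at rank 282 from the dimmest. Etv5 was under 2-fold by its other probe set, and Etv4 by its only one.

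Against control, 2-fold differences were common. Of 11943 genes, 2229 (18.7%) were at least 2-fold brighter and 1223 (10.2%) at least 2-fold dimmer on tumor than on control. Etv1 had rank 223 from the brightest there and Etv4 rank 495 from the dimmest. The family was chosen with the opposite directions of Etv1 and Etv4 between these arrays known, so these ranks are description only. Of 11862 genes, 2086 (17.6%) were at least 2-fold brighter and 1010 (8.51%) at least 2-fold dimmer on high doxycycline than on control, and Etv1, at rank 1346 from the brightest, was the one member past 2-fold. Etv5 lay near the middle of all genes there, with 49.4% of them below it. Both comparisons use the same control array, so a high or low value on it moves both.

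How far probe sets of a gene disagree was the one internal measure of error, and it does not show how replicates would differ. Over genes with several probe sets the median log2 disagreement was 0.069 for tumor against high doxycycline (806 genes), 0.40 for tumor against control (832 genes) and 0.38 for high doxycycline against control (829 genes). The differences of Etv1 exceeded these medians in each comparison. So did that of Etv5 between tumor and high doxycycline, although its own probe sets were 0.30 apart, further than in 86.2% of such genes. The 90th percentiles of disagreement were 0.34, 1.59 and 1.47 in the same order. For high doxycycline against control, the 1.31 of Etv1, the -0.95 of Etv4 and the 0.076 of Etv5 lay under that percentile in size. For tumor against control, the -0.95 of Etv5 lay under the percentile of that comparison too. Between tumor and high doxycycline, 34.6% of all probe sets hold equal values, which lowers the disagreement there. Shifting all arrays to a common median adds 0.19 to tumor minus control, 0.14 to high doxycycline minus control and 0.044 to tumor minus high doxycycline. After that shift Etv1 stood at 2.60, 1.45 and 1.14, and Etv4 at -1.64, -0.81 and -0.83. Etv5 stood at -0.77, 0.22 and -0.99.

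**Figure D2:**
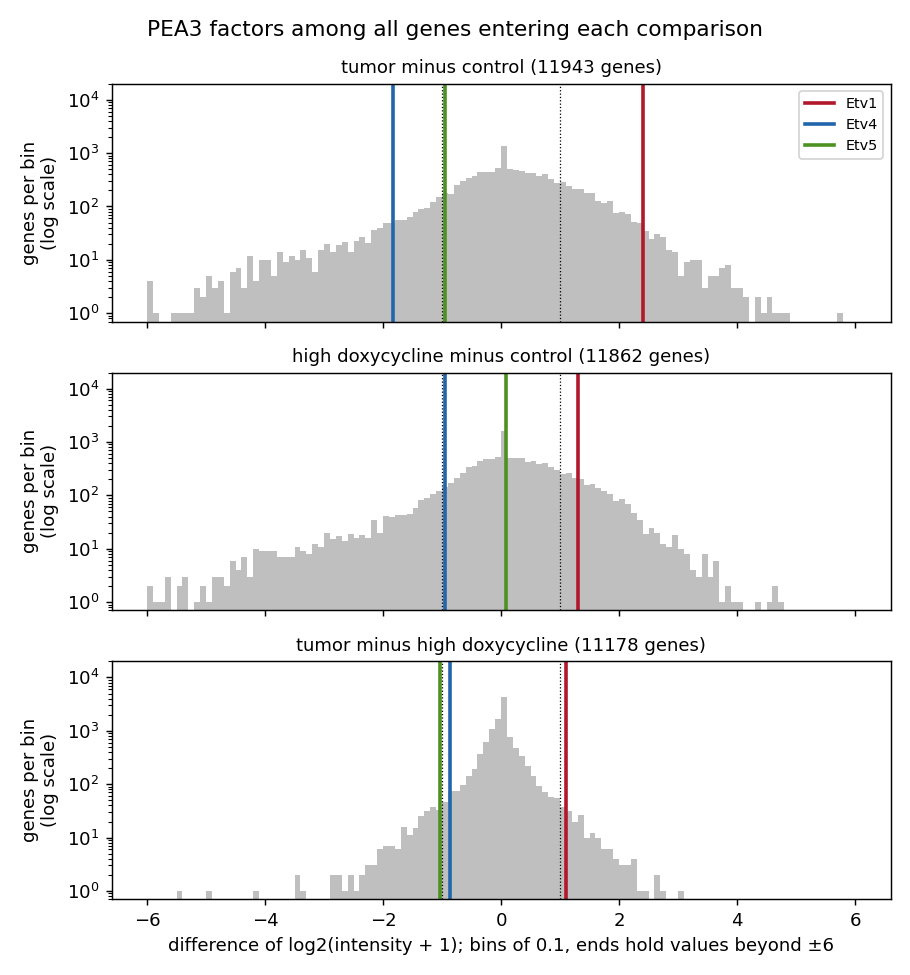
Numbers of genes (log scale) by difference of log2(intensity + 1) for tumor minus control, high doxycycline minus control and tumor minus high doxycycline, with coloured lines at Etv1, Etv4 and Etv5 (brighter probe set) and dotted lines at 2-fold. Etv1 lies right of 1 in each panel, at 2.41, 1.31 and 1.10, and Etv4 left of 0 in each, at -1.82, -0.95 and -0.87.

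The other ETS factors share the DNA-binding domain. Of the 23 measured, 12 entered the comparison of tumor with high doxycycline and 0 differed by 2-fold, where over all genes 1.60% were brighter and 1.95% dimmer, so that a count near 0 is also what the background gives. Their differences ran from -0.51 (Ets2) to 0.24 (Erf, a repressor of ETS sites), with a median of 0 against 0 over all genes. Of these 12 factors 2 lay above 0 and 4 below, and the rest hold equal values on both arrays, which puts the median at 0. The PEA3 differences of 1.10, -0.87 and -1.03 lie outside the range of the 12, which was not tested. Of the 24 probe sets of these other factors, 8 hold exactly the same number on tumor and high doxycycline, as do 9970 (34.6%) of all probe sets, and the sources used here give no reason for it. None of the 5 PEA3 probe sets holds the same value on any pair of arrays.

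Against control, 16 of the other ETS factors entered and 4 were at least 2-fold dimmer on tumor (10.2% of all genes were), with 0 brighter (18.7% of all genes) and a median of -0.32 against 0.083 over all genes. Elf3, an epithelial ETS factor, was 16.9-fold dimmer (178, against 3025 on control). Spi1, the PU.1 gene of macrophages, was 7.86-fold dimmer (99.9, against 793 on control). Erg, a gene of endothelium, was 2.84-fold dimmer (111, against 317 on control). For Elf4 the brighter probe set was 3.56-fold dimmer and its other one differed by -0.070 on the log2 scale. On high doxycycline Elf3, Spi1, Erg and Elf4 were at least 2-fold dimmer than on control as well (8.51% of all genes were). All of them lay under the array median on tumor and on high doxycycline, and entered through control alone. Spi1 and Erg went with the macrophage and endothelial markers given above, whose part in these values was not tested.

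**Figure D3:**
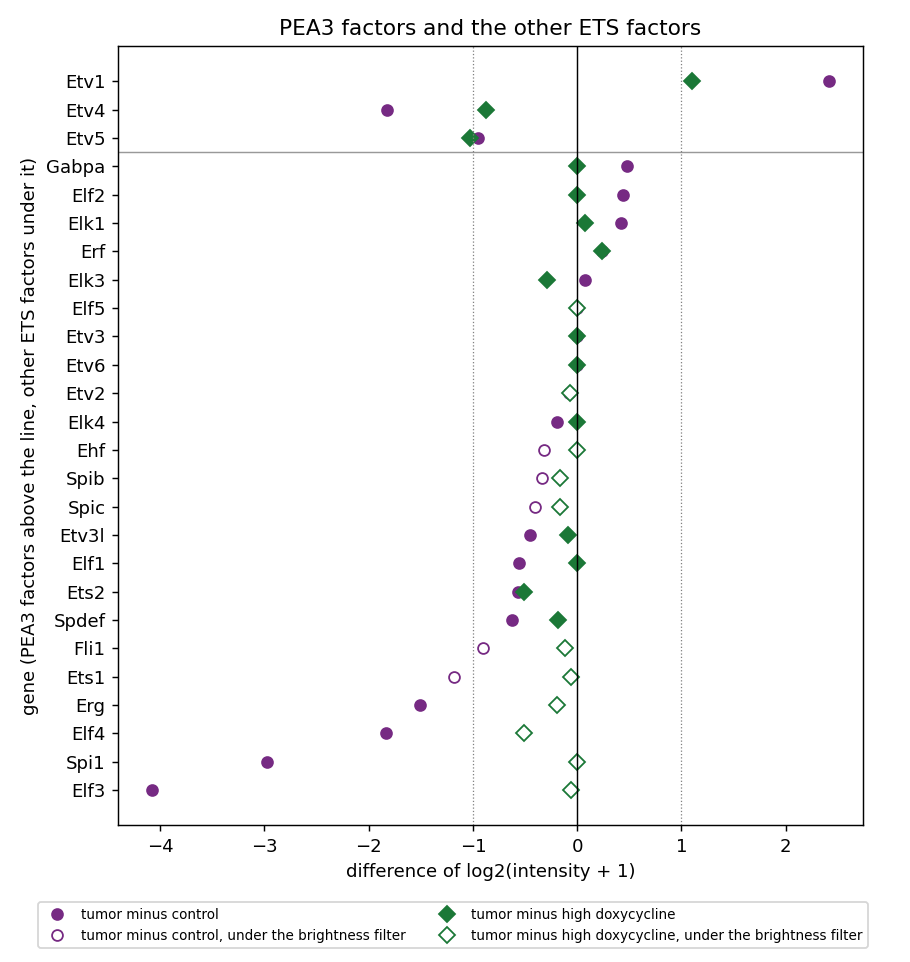
Differences of log2(intensity + 1) for the PEA3 factors (above the line) and the other ETS factors (under it), as tumor minus control (circles) and tumor minus high doxycycline (diamonds); open symbols did not enter for low brightness, and dotted lines mark 2-fold. The diamonds of the other factors run from -0.51 to 0.24, and those of Etv1, Etv4 and Etv5 lie at 1.10, -0.87 and -1.03.

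Upstream of the family, 17 of 23 measured growth factor and receptor genes entered the comparison of tumor with control, with 1 brighter (18.7% of all genes) and 6 dimmer (10.2% of all genes) by 2-fold (median -0.73, against 0.083 over all genes). Met, the receptor for hepatocyte growth factor, was 2.86-fold brighter on tumor (1244, against 435 on control). Dimmer on tumor than on control were the PDGF receptor genes Pdgfrb (5.84-fold) and Pdgfra (3.05-fold), the neurotrophin receptor gene Ntrk2 (3.22-fold) and the ligand gene Fgf18 (2.61-fold). On tumor Pdgfrb (187) and Ntrk2 (97.8) lay under the array median. Pdgfra is also one of the fibroblast markers above. Fgfr1 and Fgfr2, receptors that feed this pathway, were 2.17-fold and 2.27-fold dimmer, both calls lost after a shift to a common median (-0.93 and -0.995 on the log2 scale). On high doxycycline against control, 1 of 17 was brighter and 4 were dimmer by 2-fold, beside 17.6% and 8.51% of all genes. Met was 4.29-fold brighter and Pdgfrb, Pdgfra, Ntrk2 and Fgfr2 were at least 2-fold dimmer. Fgfr2 holds the same value (761) on tumor and high doxycycline, so its 2 comparisons with control are 1 observation. Between tumor and high doxycycline 0 of 13 passed 2-fold, where 1.60% of all genes were brighter and 1.95% dimmer. There Fgf18 (274 on tumor and 517 on high doxycycline) and Fgfr1 (2703 on tumor and 4047 on high doxycycline) differed by -0.91 and -0.58 on the log2 scale. Egfr went the other way, by 0.83 (1276 on tumor and 717 on high doxycycline). Of the 13, 8 were lower on tumor and 3 were higher.

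Of the RAS-ERK cascade 12 of 18 listed genes were measured. Against control 2 of the 12 were 2-fold brighter on tumor and 2 on high doxycycline, near the 18.7% and 17.6% of all genes. Dimmer by 2-fold were 0 and 1, beside 10.2% and 8.51% of all genes. The kinase gene Map2k1 (MEK1) was 2.55-fold brighter on tumor than on control, and the RAS-inactivating gene Rasa1 was 2.46-fold brighter. On high doxycycline these were 2.47-fold and 2.46-fold brighter than on control. Rasa1 holds the same value (1295) on tumor and high doxycycline, so its 2 comparisons with control are 1 observation. On high doxycycline the scaffold gene Ksr1 was 2.13-fold dimmer than on control. That call was lost after a shift to a common median (-0.95 on the log2 scale) and with a pseudocount of 64. The medians were 0.014 for tumor against control and 0.032 for high doxycycline against control, against 0.083 and 0.089 over all genes. Between tumor and high doxycycline 0 of the 12 differed by 2-fold, with Map2k1 at 0.046 on the log2 scale. Over all genes 1.60% were brighter and 1.95% dimmer there, so the background also gives a count near 0.

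Genes that ERK signalling switches on included several that, like Etv4, were dimmest on tumor. Of 16 that entered the comparison of tumor with control, 1 was brighter and 4 were dimmer by 2-fold, beside 18.7% and 10.2% of all genes, with a median of -0.80 against 0.083 over all genes. Dusp6, the ERK phosphatase gene that is a common companion readout of Etv4 and Etv5, had 455 on tumor, 1794 on high doxycycline and 3435 on control. It was lowest on tumor and highest on control, as Etv4 was, and 7.54-fold dimmer on tumor than on control. Ier3 was 3.87-fold, Egr1 2.88-fold and the Sprouty gene Spry1 2.30-fold dimmer on tumor than on control, the call for Spry1 being lost with a pseudocount of 64 (log2 -0.97). On tumor Spry1 (174) lay under the array median. Phlda1 was 2.04-fold brighter, with 3019 on tumor and 1483 on control, a call lost under quantile normalization and with a pseudocount of 64. Of the 16, 12 were lower on tumor than on control and 3 were higher. The higher ones were Phlda1, Dusp4 (0.60 on the log2 scale) and Spry4 (0.31).

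Between tumor and high doxycycline 13 of these genes entered, and 0 were brighter by 2-fold (1.60% of all genes). Dimmer by 2-fold were 2 (1.95% of all genes), Dusp6 (3.94-fold) and Ier3 (2.88-fold). The median was -0.27 against 0 over all genes. On the log2 scale Etv4 (-0.87), Etv5 (-1.03), Dusp6 (-1.98), Dusp4 (-0.83) and Spred1 (-0.71) were all lower on tumor. Etv1 (1.10) and Phlda1 (0.93) were higher. Between high doxycycline and control, Dusp4, another ERK phosphatase gene, was 2.69-fold brighter on high doxycycline, the 1 of 16 (17.6% of all genes). At least 2-fold dimmer were 0 of 16 genes (8.51% of all genes), against 3 under quantile normalization.

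**Figure D4:**
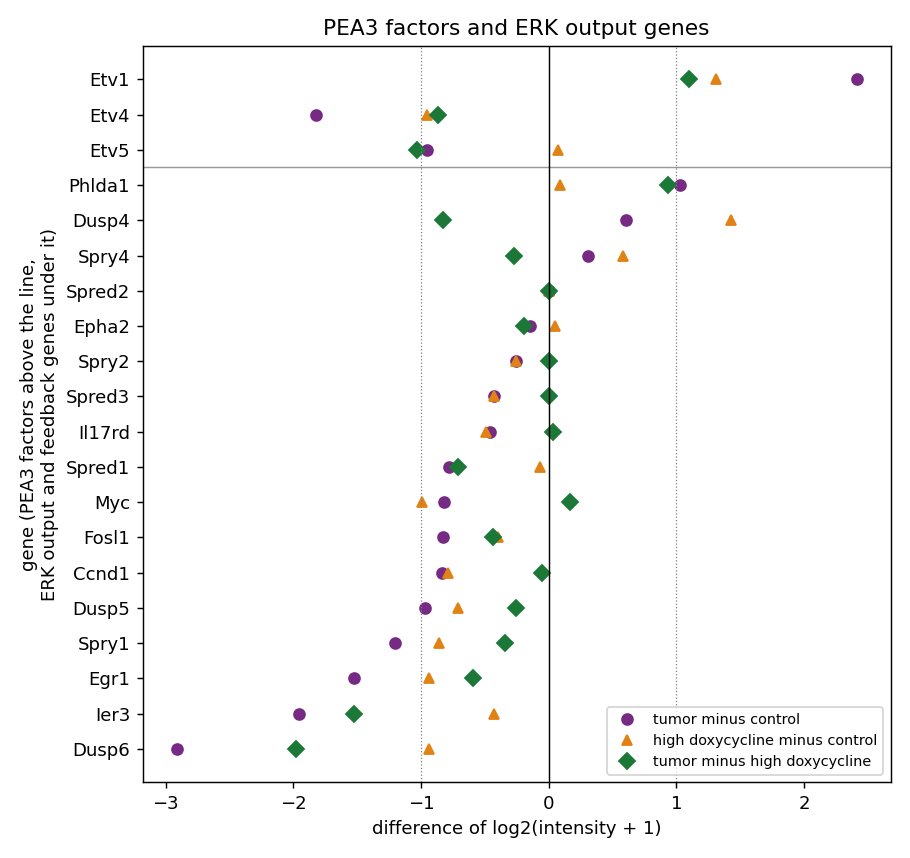
Differences of log2(intensity + 1) for the PEA3 factors (above the line) and 17 ERK output and feedback genes (under it) in the 3 comparisons, with dotted lines at 2-fold. Etv4 and Dusp6 lie left of 0 in each comparison and Etv1 right of 0 in each. Etv5 and Dusp4 lie right of 0 for high doxycycline minus control and left of 0 for tumor minus high doxycycline. For tumor minus control they part, with Etv5 at -0.95 and Dusp4 at 0.60.

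Genes that hold PEA3 factors down were measured for all 12 listed. The repressor gene Cic had 1407 on tumor, 1047 on high doxycycline and 1894 on control, highest on control. It was 1.35-fold dimmer on tumor and 1.81-fold dimmer on high doxycycline than on control. Its corepressor gene Atxn1 gave opposite directions against control with its 2 probe sets, -0.57 and 1.80 on the log2 scale for tumor minus control. The ubiquitin ligase gene Cop1 had 1680 on tumor, 1503 on high doxycycline and 686 on control, and was lowest on control. It was 2.45-fold brighter on tumor than on control and 2.19-fold brighter on high doxycycline than on control, with a second probe set at 1.29 and 1.13 on the log2 scale. The ligase subunit genes Dda1 and Rbx1 were 2.01-fold and 2.10-fold brighter on high doxycycline than on control, and a second Rbx1 probe set gave 0.65 on the log2 scale. As deposited 3 of 12 were 2-fold brighter in that comparison (17.6% of all genes), and under quantile normalization 0 were. At least 2-fold dimmer there were 0 as deposited (8.51% of all genes) and 1 under quantile normalization. For tumor against control 1 of 12 was brighter and 0 were dimmer by 2-fold, beside 18.7% and 10.2% of all genes. Between tumor and high doxycycline 0 of 12 differed by 2-fold, where 1.60% of all genes were brighter and 1.95% dimmer.

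Of genes reported elsewhere as targets of PEA3 factors, 7 of the 12 that entered were at least 2-fold dimmer on tumor than on control (10.2% of all genes were). At least 2-fold brighter were 0 (18.7% of all genes), and the median was -1.21, against 0.083 over all genes. The matrix metalloprotease genes Mmp2 (29.3-fold), Mmp3 (11.5-fold) and Mmp9 (9.52-fold) and the urokinase gene Plau (18.8-fold) differed most. On tumor these genes lay under the array median of 219.8, at 183, 70.1, 130 and 172, and entered through control alone. A gene under the median on tumor can enter in this direction only. Of the 17 measured, 6 lay above the array median on tumor and 12 on control. On high doxycycline 7 of 12 were dimmer than on control as well (8.51% of all genes were), with Mmp2 at 25.6-fold. Macrophages and fibroblasts make these proteases too, and their markers were dimmer on tumor and high doxycycline than on control. The part of those cells was not tested. Of the 7 that entered between tumor and high doxycycline, Plau was the one past 2-fold (172 on tumor and 439 on high doxycycline, 2.55-fold dimmer). Over all genes 1.95% were 2-fold dimmer there. Ret, the GDNF receptor gene that acts with Etv4 and Etv5 in kidney branching, had 1928 on tumor, 2183 on high doxycycline and 2220 on control, all close together.

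Etv1 marks interstitial cells of Cajal, where it depends on the receptor Kit. Kit had 144 on tumor, 146 on high doxycycline and 254 on control, under the array median on both arrays where Etv1 was bright. Ano1, the chloride channel gene of those cells, had 516 on tumor, 249 on high doxycycline and 298 on control, and was 2.06-fold brighter on tumor than on high doxycycline, a call lost under quantile normalization. The 5 neuronal and secretory markers summed to 21732 on tumor, 17407 on high doxycycline and 4299 on control, in sum the same order as Etv1. Not each gene had that order, as Stmn2 had 5186 on tumor and 5192 on high doxycycline. Uchl1 differed there by 0.11 on the log2 scale. The synaptic vesicle gene Syt1 had 426 on tumor, 201 on high doxycycline and 158 on control. It was 2.11-fold brighter on tumor than on high doxycycline, a call lost with a pseudocount of 64. Of the 5 it was the 1 past 2-fold there (1.60% of all genes were brighter).

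The genes nearest to each member were found by Euclidean distance in the pair of log2 differences from control, over the 3 arrays and 11795 genes. Nearest to Etv1 were Slitrk2, a neuronal transmembrane gene (distance 0.071), Them6 (0.10), the glycosyltransferase gene B3galt1 (0.17) and the glycerol phosphate dehydrogenase gene Gpd1 (0.19), and 6 genes lay within 0.25. Slitrk2 had 691 on tumor, 302 on high doxycycline and 123 on control. Nearest to Etv4 were the mitotic kinase gene Nek2 (0.040), Rcn1 (0.064), the transketolase gene Tkt (0.066) and Fam167a (0.095), with 28 genes within 0.25. Nearest to Etv5 were Kctd15 (0.071), the ERK phosphatase gene Dusp2 (0.074), Arfgef3 (0.076) and the histone gene H2ac15 (0.091), with 34 within 0.25. Dusp2 had 178 on tumor, 346 on high doxycycline and 345 on control. The distances rest on 3 arrays and describe likeness of pattern only.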

How the data were processed

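RNA was extracted with a column kit, labelled with biotin and hybridised to MoGene-1_0-st-v1 arrays, per the labels. The authors deposited linear intensities, a single one for each probe set; the sources used here do not say how they were corrected, summarised or scaled. Arrays were grouped by title. Symbols came from the platform annotation: 21789 probe sets with 1 symbol were used, while 1621 with several and 5446 without were not. Of several probe sets of a gene the one with the highest mean represented it. Differences were taken between log2(intensity + 1) values, so folds of dim genes are understated. A gene counted as called at a log2 difference of 1 or more in size. With 1 array per group no test was possible, and precision is limited by the number of arrays. The procedure was tested on simulated data with noise and differences set in advance. That checks the code and does not measure error in these data.

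Of 149 list entries 140 were measured; the rest are not analysed here. The members and lists were chosen with earlier results of these data known. Named genes are the members and up to 4 list genes per direction past 2-fold against control. Also named are the 4 nearest genes of each member without provisional symbols. Outside this rule Cic, Atxn1, Kit, Ano1, Ret, Spred1, Spry4, Egfr, Fgfr1, Fgfr2, Ets2 and Erf were chosen after their values were seen. Alternatives were quantile normalization, a common median, the mean over a gene's probe sets, single-probe-set genes, other pseudocounts (16, 64), and the brightness filter set at percentile 75 or left out. Promoter sequences are from RefSeq (GRCm38.p6). Python 3.11.15, numpy 2.4.6 and pandas 2.3.3 were used.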

Additional observations from a re-analysis of the deposited data

How the results depend on the processing

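No paired analysis was possible because each group has 1 array. Etv1 kept its sign in each comparison under the alternatives that gave it a value, as did Etv4, and Etv5 kept its sign in both comparisons that involve tumor. Etv1 ran from 2.19 to 3.04 for tumor and from 1.15 to 1.91 for high doxycycline against control, and from 1.04 to 1.14 between tumor and high doxycycline. Moves larger than the median disagreement of probe sets were these. For tumor against high doxycycline, Etv4 became -0.78 under quantile normalization and -0.68 with a pseudocount of 64, and Etv5 became -0.95, -0.93 and, as a mean of its probe sets, -0.88. With the dimmer probe sets, an alternative chosen after seeing the data, Etv1 became 3.04 against control on tumor and 1.91 on high doxycycline, and Etv5 on tumor became -0.44 against control and -0.73 against high doxycycline. Etv5 against control on tumor ran from -1.11 to -0.44, on both sides of 2-fold, and so did Etv4 on high doxycycline against control, from -1.07 to -0.81. The filter at percentile 75, which tests fewer genes, left 692 genes dimmer on tumor than on control, 571 dimmer on high doxycycline than on control, and 104 brighter and 144 dimmer on tumor than on high doxycycline. It removed Etv4 from each comparison, Etv1 from high doxycycline against control, and Etv5 from both comparisons that involve high doxycycline, and Etv1 and Etv5 have no value among genes with a single probe set. Of the list counts under these alternatives, 24 moved by more than 1.5 times and 552 did not. Etv4 on tumor and the dimmer Etv1 probe set on control lie under their array medians, where signal over background limits the fold.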
